A study of Homo sapiens with 6 samples.

Results

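Hypoxia-inducible factor (HIF) genes and their best-known targets were followed in T98G cells, a human glioblastoma line, after depletion of the protein kinase DYRK1A. The set comprised 10 genes, chosen by name from the 23026 genes of the authors' normalized table: the factor genes HIF1A and EPAS1, the oxygen sensors EGLN1 and EGLN3, and the targets VEGFA, ADM, CA9, CA12, BNIP3 and NDRG1. All 10 were found, and 9 passed the level filter of a mean above 10 normalized CPM (counts scaled to a common library total) that left 9697 genes for testing, the exception being CA9. Messenger RNA was sequenced in 6 libraries, 3 from cells infected with a lentivirus for a control short hairpin RNA (shControl 1A, 1B and 1C) and 3 from cells infected with one directed against DYRK1A (shDYRK1A 1A, 1B and 1C). Infected cells of both groups went through puromycin selection and a recovery period without it, and the labels name no low-oxygen treatment. Each group rests on a single cell line, and the labels do not say whether the 3 libraries came from separate cultures, so the p-values measure the spread between these libraries, which may be technical. Fly cells of the line Kc167 served as an external standard: their number was held constant, they were added per equal input of T98G cells, and the authors scaled each library by its fly reads. Spike-in normalized counts therefore compare RNA per equal input of cells, whereas CPM, or scaling by the trimmed mean of M values (TMM) over the human genes, compares shares of the human mRNA.

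HIF is a pair of proteins, an oxygen-labile alpha subunit (HIF-1α, encoded by HIF1A, or HIF-2α, encoded by EPAS1) and the stable partner ARNT. In the presence of oxygen the EGLN prolyl hydroxylases mark the alpha subunit, the VHL ubiquitin ligase binds the mark, and the subunit is degraded. When oxygen is scarce the subunit escapes and drives genes for blood vessel growth, glucose use, pH control and mitochondrial turnover, and EGLN1 and EGLN3 are themselves targets, which closes a feedback loop. Most of this control acts on the protein, which mRNA counts do not measure, and glioblastoma is a tumour in which HIF targets such as VEGFA and CA9 are well known around necrotic areas.

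The short sequence that HIF contacts is ACGTG or GCGTG, read on either strand, and promoters were searched for it because HIF targets are defined by control through that site. RefSeq (GRCh38.p14) promoter windows of 300 bases, from 250 before to 50 after the annotated start, were found for 8 of the 10 genes. VEGFA and NDRG1 had no entry. Of 34943 distinct windows of this length, 21.4% held ACGTG, 36.5% held GCGTG and 48.4% held either. One match from each gene's window, ACGTG where present and otherwise the most upstream GCGTG, is shown 5′ to 3′ on the gene's strand, with the match in capitals, so that CACGT or CACGC marks a match on the opposite strand. The 3 windows with ACGTG come first, and the 4 with only GCGTG follow.
EGLN1: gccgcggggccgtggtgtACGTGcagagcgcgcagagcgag
BNIP3: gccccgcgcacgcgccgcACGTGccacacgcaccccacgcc
CA9: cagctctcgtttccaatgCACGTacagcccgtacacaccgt
HIF1A: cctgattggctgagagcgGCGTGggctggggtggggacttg
EPAS1: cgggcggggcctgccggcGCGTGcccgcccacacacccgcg
ADM: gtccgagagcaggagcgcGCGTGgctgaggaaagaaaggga
CA12: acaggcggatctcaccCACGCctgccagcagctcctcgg

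These stretches lie at chr1:231422278-231422318 (EGLN1, minus strand), chr10:131982034-131982074 (BNIP3, minus), chr9:35673892-35673932 (CA9, plus), chr14:61695291-61695331 (HIF1A, plus), chr2:46297272-46297312 (EPAS1, plus), chr11:10304954-10304994 (ADM, plus) and chr15:63382058-63382096 (CA12, minus). BNIP3 had the densest window, with ACGTG on both strands at 1 place, where the matches overlap by 4 bases, and GCGTG at 4 other places on the opposite strand. The matches in CA9 and EGLN1 lay 18 and 13 bases before the annotated start. EGLN3 had no match in its window, nor did the second of the HIF1A windows. The palindrome TCTCGCGAGA, the motif the study examined at DYRK1A-bound promoters, was in 0 of the windows of these genes and in 0.412% of all windows. A match is a run of letters and not a measured binding site.

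The libraries held 33708297 to 42154438 gene counts, and size factors from the spike-in ran from 0.821 to 1.21. shDYRK1A 1B was the shallowest, had the highest unmapped share (15.6%) and differed most from its group. DYRK1A itself fell, with a log2 fold change (log2FC) of -0.73 ± 0.15 (SE) under spike-in scaling and -0.34 ± 0.06 under TMM. Of the markers checked, VIM and CD44, genes of mesenchymal-type glioma cells, were abundant at 1530 CPM or more and 1401 CPM or more. The stem and astrocyte genes SOX2, S100B and GFAP were at or near 0 in every library. NES, a further glioma marker checked, was low at 1.29 to 2.02 CPM. The 6 markers of other cell types summed to 1.42 to 1.77 CPM in shControl and 1.96 to 2.76 CPM in shDYRK1A, EPCAM being the highest of them, and their part in the results was not tested. Unless another test or filter is named, tests here and below are edgeR quasi-likelihood tests with Benjamini-Hochberg adjustment over the 9697 genes.

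All 9 tested genes fell after DYRK1A depletion on the spike-in scale, and in each of them every shDYRK1A library lay below every shControl library. A fall of this kind was common, since 63.4% of all tested genes were lower at an adjusted p below 0.05, 63.6% had groups that did not overlap with shDYRK1A below, and the median log2FC of all genes was -0.40. Only 1.08% of genes were higher, and no member was among them. With the study's stricter rule, which adds a log2FC below -0.7, NDRG1 and BNIP3 were called, 2 of 9, beside 14.3% of all genes. Without shControl 1C, or without shDYRK1A 1A, the stricter rule called 4 of the 9, beside 2093 and 2083 of all 9697 genes. Without shControl 1A or 1B the adjusted p alone was passed by 6 of the 9. The share of all genes passing it in those fits was not computed. The median log2FC of the 9 genes was -0.48. When libraries were scaled by TMM, which moved the median of all genes to 0.00, 4 of the 9 genes were lower at an adjusted p below 0.05, beside 28.6% of all genes, and none was higher, beside 27.3%. Those 4 were NDRG1, BNIP3, HIF1A and VEGFA, and the median of the 9 was -0.07. Fewer cells that express a gene and less of its RNA per cell cannot be told apart in such bulk samples.

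**Figure D1:**
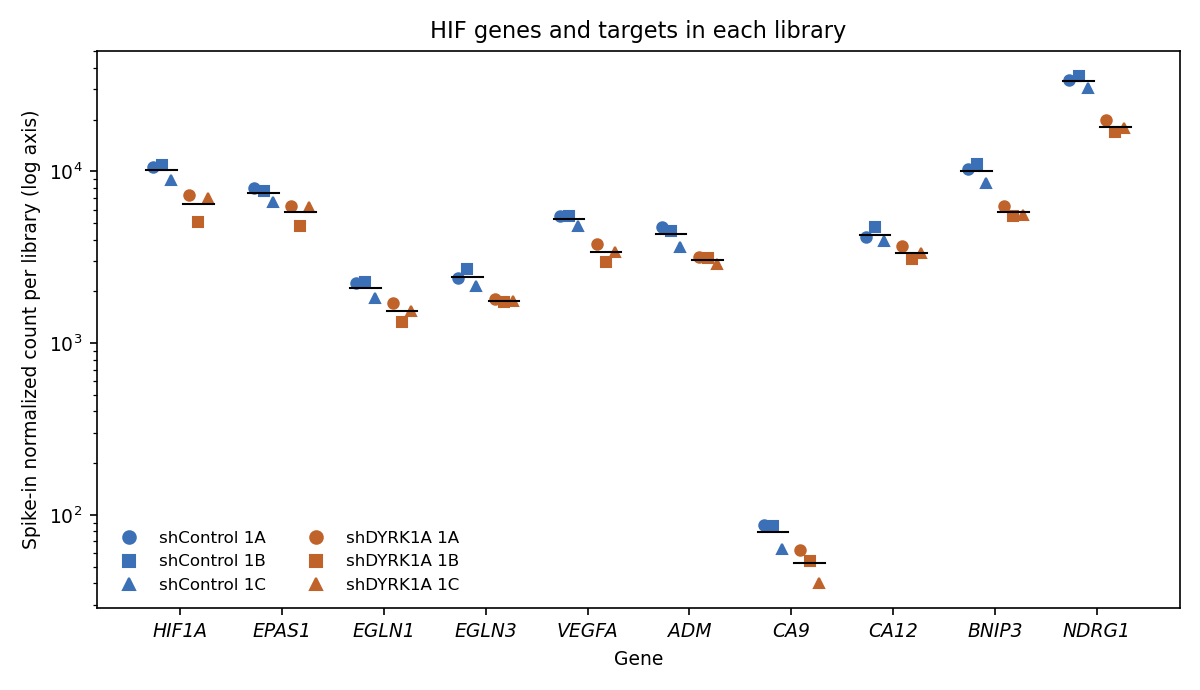
Spike-in normalized count of each gene (log axis) in each library, with shControl in blue, shDYRK1A in orange, symbols for replicates 1A, 1B and 1C, and a bar at each group mean of 3. In all 10 genes the 3 shDYRK1A points sit below the 3 shControl points, and the genes span levels from about 40.4 (CA9) to about 35916 (NDRG1).

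Both alpha subunit genes were abundant, and after DYRK1A depletion HIF1A stood at 63.6% and EPAS1 at 77.6% of the control level. HIF1A (ENSG00000100644, GRCh38 chromosome 14, 61695513 to 61748259, plus strand) encodes the subunit present in most tissues. Its normalized count in libraries 1A, 1B and 1C was 10594, 10942 and 8969 for shControl, against 7325, 5074 and 6986 for shDYRK1A, and the same library order is kept below. The group means were 10168 ± 1053 and 6462 ± 1214 (SD, n = 3), and shDYRK1A 1B was the lowest library. This gave a log2FC of -0.65 ± 0.13 (SE) with an adjusted p of 7.87e-06. Without shDYRK1A 1B the log2FC was -0.51, the smallest fall among the fits that left out 1 library, and HIF1A passed the adjusted p in 6 of 6 of them. On the TMM scale it also fell, by 0.26 on the log2 scale with an adjusted p of 0.00724. A share of 2.87% of its exon bases is shared with AL137129.1 on the same strand and 2.27% with HIF1A-AS1 on the opposite strand. Reads that overlap more than 1 gene can be classed as ambiguous, and ambiguous reads were not counted.

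EPAS1 (ENSG00000116016, chromosome 2, 46293667 to 46386703, plus strand) encodes HIF-2α, best known from endothelium, kidney and glioma stem cells. Its normalized count was 7985, 7705 and 6632 in the shControl libraries, and 6290.4, 4809 and 6229.5 in the shDYRK1A libraries. The groups did not overlap, but the nearest libraries, shControl 1C and shDYRK1A 1A, were close. The log2FC was -0.37 ± 0.13 (SE) with an adjusted p of 0.013. This call was fragile, since it was lost in 3 of the 6 fits that left out a library, with a log2FC of -0.31 and an adjusted p of 0.107 without shControl 1A, -0.34 and 0.075 without shControl 1B, and -0.25 and 0.134 without shDYRK1A 1B. On the TMM scale the value was 0.04 ± 0.06, with an adjusted p of 0.606, and the CPM of the groups overlapped.

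A ratio of both genes within each library does not depend on any scaling between libraries. For each EPAS1 count the shControl libraries held 1.33, 1.42 and 1.35 raw counts of HIF1A, and the shDYRK1A libraries held 1.16, 1.05 and 1.12. The lowest shControl ratio was above the highest shDYRK1A ratio, and the log2 difference was -0.30. By a two-sided exact permutation test p was 0.1, the lowest value possible with 3 libraries a group, and 0.2 after Benjamini-Hochberg adjustment over the 4 ratios examined. The design cannot bring such a test below 0.05.

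**Figure D2:**
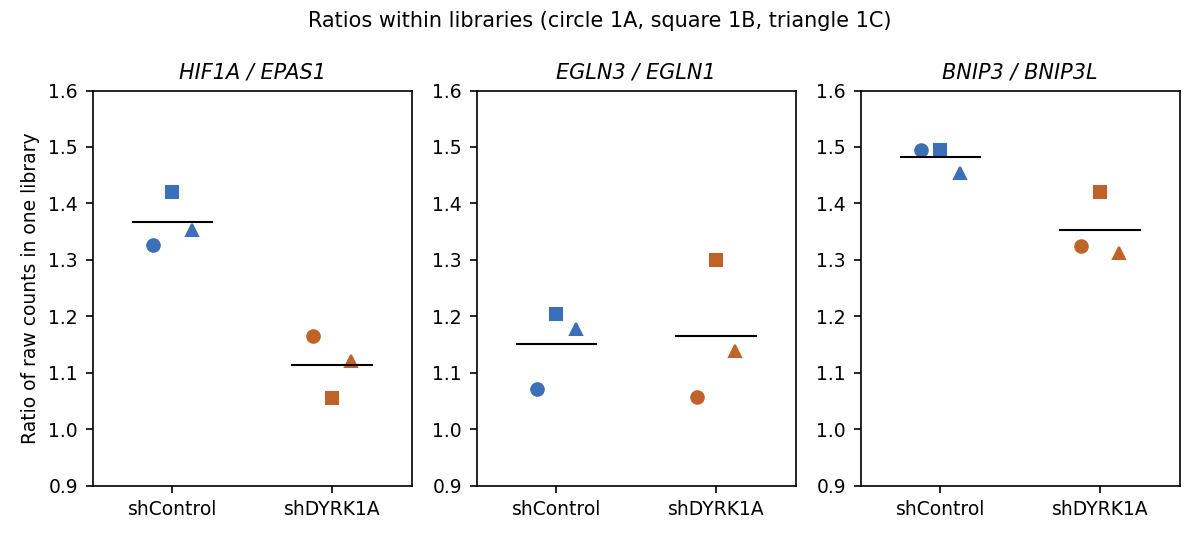
Ratio of raw counts of related genes within each library, by group, with a bar at each group mean of 3; no scaling between libraries enters. The HIF1A to EPAS1 ratio was 1.33 to 1.42 in shControl and 1.05 to 1.16 in shDYRK1A, the BNIP3 to BNIP3L ratio also separated the groups, and the EGLN3 to EGLN1 ratio overlapped.

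The oxygen sensors fell by close to the median of all genes. EGLN1 (ENSG00000135766, chromosome 1, 231363751 to 231425044, minus strand) encodes PHD2, the main hydroxylase of HIF-1α at normal oxygen. It had 2247, 2258 and 1819.7 normalized counts in shControl and 1715, 1334 and 1547 in shDYRK1A. The groups were separate, by a narrow margin between shControl 1C and shDYRK1A 1A. Its log2FC was -0.46 ± 0.15 (SE; adjusted p of 0.00372), and without shControl 1A the adjusted p was 0.0505. EGLN3 (ENSG00000129521, chromosome 14, 33924231 to 34462774, minus strand) encodes PHD3, the sensor most strongly induced by hypoxia in many cells. The shControl libraries had 2406, 2720.1 and 2142 normalized counts and the shDYRK1A libraries 1813, 1734 and 1760.2, where the spread was small (SD 40.0 against 289 in shControl). The log2FC was -0.45 ± 0.14 (SE; adjusted p of 0.00384), and without shControl 1B the adjusted p was 0.0715.

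On the TMM scale neither sensor passed the test, with values of -0.06 ± 0.05 for EGLN1 and -0.04 ± 0.07 for EGLN3. The EGLN3 to EGLN1 ratio was 1.07, 1.20 and 1.18 in shControl and 1.06, 1.30 and 1.14 in shDYRK1A, and the groups overlapped (log2 difference of 0.01, exact permutation p = 1). Both genes lay near the middle of the distribution, with 41.2% of tested genes below EGLN1 in log2FC and 42.0% below EGLN3.

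Both secreted factors fell on the spike-in scale, and VEGFA alone fell on the TMM scale. VEGFA (ENSG00000112715, chromosome 6, 43770184 to 43786487, plus strand) is the growth factor that drives sprouting of blood vessels. It had 5484, 5504 and 4801 normalized counts in shControl and 3757, 2956 and 3403 in shDYRK1A, so that a wide gap lay between the groups. The log2FC was -0.64 ± 0.14 (SE; adjusted p of 2.18e-05), or 64.1% of control, and it passed in 6 of 6 fits without 1 library. On the TMM scale it fell by 0.24 on the log2 scale (adjusted p of 0.00061). ADM (ENSG00000148926, chromosome 11, 10304680 to 10307397, plus strand) encodes adrenomedullin, a vasodilator peptide. Normalized counts of 4748, 4491 and 3644 in shControl compared with 3190.1, 3132 and 2885 in shDYRK1A. The groups were separate with a log2FC of -0.48 ± 0.14 (SE; adjusted p of 0.00147), while on the TMM scale the value was -0.07 ± 0.07 (adjusted p of 0.401).

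The carbonic anhydrases CA9 and CA12, surface enzymes that help tumour cells hold their pH by hydrating carbon dioxide, differed widely in level. CA9 (ENSG00000107159, chromosome 9, 35673856 to 35681159, plus strand), often used as a tissue marker of hypoxia, had only 72, 76 and 65 raw counts in shControl and 66, 58 and 49 in shDYRK1A. These are 87.7, 86.2 and 63.3 normalized counts against 62.4, 53.7 and 40.4, with shControl 1C barely above shDYRK1A 1A. It was under the level filter, and with edgeR's filterByExpr, which keeps lower genes, its log2FC was -0.60 ± 0.26 (SE; adjusted p of 0.0478). With no filter beyond 1 count, 9 of the 10 members were lower at the adjusted p, and CA9 was not among them. A share of 38.5% of its exon bases overlaps ARHGEF39 on the opposite strand, and the strand setting of the counting was not given in the sources used here, so at these counts its value is uncertain.

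CA12 (ENSG00000074410, chromosome 15, 63321378 to 63382161, minus strand) had 4127, 4758 and 3919 normalized counts in shControl and 3661, 3088 and 3358 in shDYRK1A. The groups were separate but close, and its log2FC of -0.34 ± 0.14 (SE; adjusted p of 0.0244) was the smallest of the 9. The call was lost in 4 of 6 fits without 1 library, with adjusted p-values of 0.0673 without shControl 1A, 0.195 without shControl 1B, 0.0944 without shDYRK1A 1B and 0.113 without shDYRK1A 1C. On the TMM scale the value was 0.06 ± 0.06 (adjusted p of 0.377). CA12 outnumbered CA9 by 47.1, 55.2 and 61.9 counts to 1 in shControl and 58.7, 57.5 and 83.2 to 1 in shDYRK1A, and these ratios overlapped (exact permutation p = 0.4).

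The clearest falls were in BNIP3 and NDRG1. BNIP3 (ENSG00000176171, chromosome 10, 131966455 to 131982013, minus strand) encodes an outer mitochondrial membrane protein that recruits the autophagy machinery to mitochondria. It had 10392, 11064 and 8609.7 normalized counts in shControl and 6259, 5511 and 5538 in shDYRK1A. No shDYRK1A library came near the lowest shControl library, and the means were 10022 ± 1268 and 5769 ± 425 (SD, n = 3). The log2FC was -0.80 ± 0.13 (SE; adjusted p of 5.06e-08), or 57.6% of control, and under TMM it was -0.39 ± 0.05 (adjusted p of 4.95e-05). Its 39 pseudogene copies, recognised by name, together held 60 to 111 raw counts per library, at most 1.30% of the BNIP3 count. Reads that map to several places were not counted, so reads shared by BNIP3 and a copy are missing from these values.

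NDRG1 (ENSG00000104419, chromosome 8, 133237171 to 133302022, minus strand), a stress-responsive gene linked to differentiation and to metastasis suppression, was the most abundant of the 10. It had 34137, 35916 and 30526 normalized counts in shControl and 19828, 17059.6 and 17799 in shDYRK1A. The group means were 33526 ± 2746 and 18229 ± 1433 (SD, n = 3), far apart relative to the spread. The log2FC was -0.88 ± 0.13 (SE; adjusted p of 3.36e-10), or 54.4% of control, and under TMM it was -0.48 ± 0.05 (adjusted p of 7.46e-06). Of all tested genes, 5.65% had a lower log2FC than NDRG1 and 8.55% a lower one than BNIP3, against 18% for HIF1A, 19.1% for VEGFA, 37.6% for ADM, 55.9% for EPAS1 and 59.4% for CA12. This order needs no choice between the scales, because a scale common to all genes moves every log2FC by about the same amount.

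**Figure D3:**
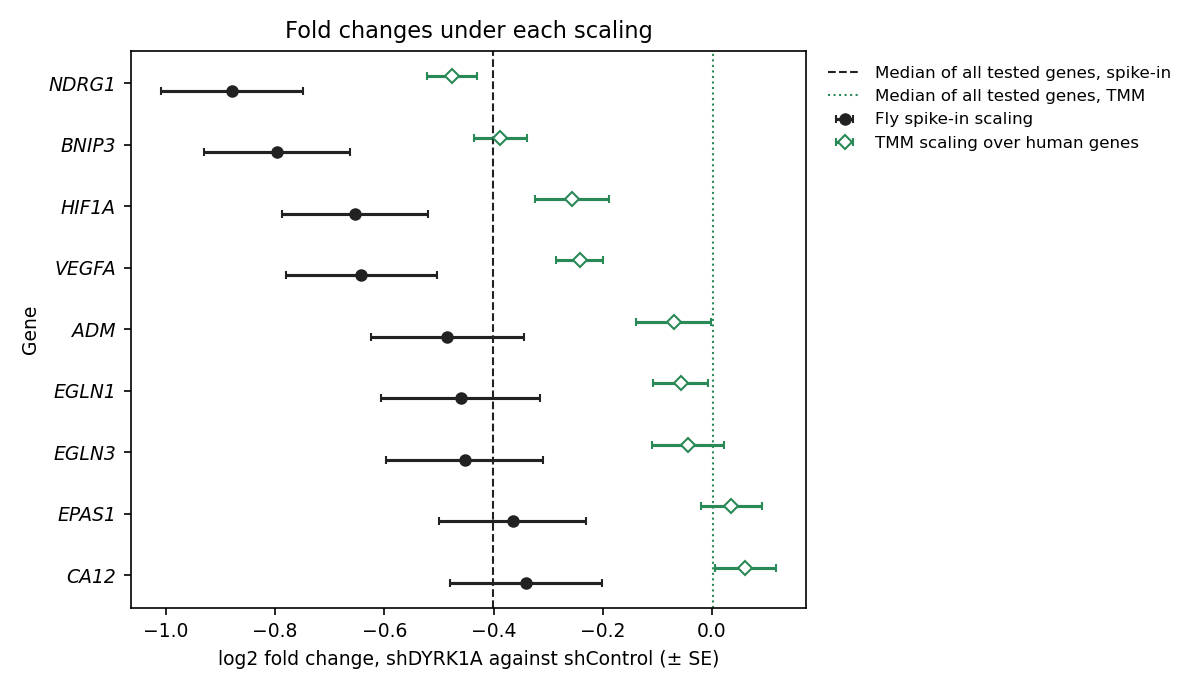
log2 fold change of the 9 tested genes (± SE) in shDYRK1A against shControl under spike-in scaling (filled circles) and TMM scaling (open diamonds), with the median of all 9697 tested genes as a dashed line at -0.40 and a dotted line at 0.00. NDRG1, BNIP3, HIF1A and VEGFA lie farthest left of the median on both scales. ADM, EGLN1 and EGLN3 lie slightly left of it on both, and EPAS1 and CA12 slightly right.

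BNIP3L, the paralogue of BNIP3 with the same task in mitochondrial clearance, fell as well, from 6758 to 4276 normalized counts on average, with a log2FC of -0.66 ± 0.14 (SE; adjusted p of 9.5e-06) and -0.26 under TMM. The BNIP3 to BNIP3L ratio was 1.49, 1.5 and 1.45 in shControl and 1.32, 1.42 and 1.31 in shDYRK1A. All 3 shDYRK1A ratios were below the shControl ratios, by a log2 difference of -0.13 (exact permutation p = 0.1, adjusted 0.2).

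As a share of all gene counts the 10 genes together made up 0.171, 0.179 and 0.177% of the shControl libraries, and 0.147, 0.143 and 0.149% of the shDYRK1A libraries. NDRG1 alone contributed 710, 751 and 761 CPM in shControl and 541, 546 and 534 CPM in shDYRK1A, so most of the difference in this sum lay in that gene. HIF1A was at 220, 229 and 224 CPM against 200, 162 and 210 CPM. In CPM the groups did not overlap for NDRG1, HIF1A, VEGFA and BNIP3, each at exact permutation p = 0.1, the smallest possible. They overlapped for the other 6 genes, CA9 included. The share of all genes without overlap in CPM was not computed, so these counts have no background to be read against.

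Per kilobase of exon, which permits a comparison between genes, the shControl level of the spike-in normalized counts ran from 3413 ± 280 (SD, n = 3) for NDRG1 to 47.3 ± 8.19 for CA9. NDRG1 stood apart at the top. HIF1A (1974), BNIP3 (1882) and ADM (1580) followed, and neighbours among these overlapped across the shControl libraries. EPAS1 (1019) and CA12 (584) each stood apart from their neighbours. VEGFA (365), EGLN3 (329) and EGLN1 (290.2) came next with overlapping libraries, and CA9 was last and apart. Exon lengths are of all annotated exons merged, so a gene with long minor isoforms is placed lower than its main transcript would be.

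Among all tested genes, the pattern over the 6 libraries most like that of HIF1A was that of CASC4 (r = 0.999), LMBR1 (0.999) and RB1 (0.997). The measure was Pearson's r of log2 CPM after TMM scaling. For EPAS1 the most alike genes were NUP98 (0.995), CEP350 (0.992) and CNOT2 (0.989). Of the other members, EGLN1 (0.90) and VEGFA (0.88) were closest to HIF1A, but only at ranks 1024 and 1274 among all tested genes. EPAS1 had an r of 0.33 with HIF1A. These values describe 6 points that share the 2 groups and the low level of HIF1A in shDYRK1A 1B.

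The other genes of the pathway comprised 85 listed genes, of which 60 passed the filter. On the spike-in scale 41 of the 60 were lower, beside 63.4% of all tested genes, 1 was higher, beside 1.08%, and 18 did not pass, with a median log2FC of -0.51 beside -0.40 for all genes, and 16 met the stricter rule, beside 14.3%. On the TMM scale 28 were lower, beside 28.6% of all genes, 15 were higher, beside 27.3%, and 17 did not pass, with a median of -0.11 beside 0.00.

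The partner subunits did not pass the test on the spike-in scale. ARNT, the shared partner of HIF1A and EPAS1, had a log2FC of -0.20 ± 0.14 (SE; adjusted p of 0.2) and ARNT2, its relative in neural cells, of -0.23 ± 0.14 (adjusted p of 0.142), while on the TMM scale both were higher, at 0.19 and 0.17. HIF3A, the remaining alpha subunit gene, was at 0 normalized counts in every shControl library and below 1 in every shDYRK1A library.

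Genes that sense oxygen or degrade the alpha subunits were lower in 4 of 8 on the spike-in scale, beside 63.4% of all genes, and 4 did not pass. Under TMM 3 were lower, beside 28.6%, 4 were higher, beside 27.3%, and 1 did not pass. VHL, which recognises the hydroxylated subunit, fell from 1426 to 818 normalized counts (log2FC of -0.80 ± 0.15 (SE), adjusted p of 1.77e-06), and by 0.40 on the log2 scale under TMM. CUL2, the cullin that scaffolds the VHL ligase, had a log2FC of -0.91 and SIAH2, a ligase for the prolyl hydroxylases, of -0.74, and both were also lower under TMM. ELOB, which pairs with ELOC in the adaptor of the VHL ligase, had a log2FC of -0.07 (adjusted p of 0.622) and HIF1AN, the asparagine hydroxylase that blocks cofactor binding, of -0.09 (adjusted p of 0.546), and both were higher under TMM, at 0.34 and 0.31. EGLN2 was under the filter.

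Of the 60 tested genes, ID2 alone was higher at an adjusted p below 0.05 on the spike-in scale. The gene encodes an inhibitor of helix-loop-helix factors that binds the VHL complex and is a substrate of DYRK1 kinases. It had 478, 538 and 407 normalized counts in shControl and 664, 613 and 568 in shDYRK1A. The groups were separate and the log2FC was 0.38 ± 0.16 (SE; adjusted p of 0.0359), but the call was lost in 5 of the 6 fits without 1 library, where the adjusted p ran up to 0.114 and only the fit without shControl 1B kept it. The call was also lost with no filter beyond 1 count (adjusted p of 0.0685). Under TMM its value was 0.78 (adjusted p of 1.87e-05). CITED2, which competes with HIF-1α for its coactivators, had a log2FC of 0.26 (adjusted p of 0.0951) and rose under TMM by 0.66. The coactivator genes EP300 and CREBBP had log2FC values of -0.28 and -0.25 and did not pass on the spike-in scale, and under TMM they were at 0.12 (adjusted p of 0.14) and 0.15 (adjusted p of 0.0415).

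Targets in glucose use were lower in 16 of 18 tested genes on the spike-in scale, beside 63.4% of all genes, with 0 higher and 2 not passed. Under TMM 12 were lower, beside 28.6%, and 2 were higher, beside 27.3%. PDK1, which keeps pyruvate out of the mitochondria, was the lowest at -0.91 ± 0.15 (SE; adjusted p of 1.42e-08). LDHA, the enzyme that makes lactate, was at -0.83, HK2, which phosphorylates glucose, at -0.82, and the lactate exporter SLC16A3 at -0.82, and all 4 were lower under TMM too. The glucose transporter SLC2A1 was at -0.56, while SLC2A3 was the highest of the group at -0.26 (adjusted p of 0.0904) and was higher under TMM, at 0.14.

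Targets that act in secretion, matrix and iron handling were lower in 7 of 9, beside 63.4% of all genes, with 0 higher, and in 5 of 9 under TMM, beside 28.6%, where 2 were higher, beside 27.3%. P4HA1, the collagen prolyl hydroxylase, had the lowest value at -1.04 ± 0.14 (SE; adjusted p of 4.16e-12), and IGFBP3, a carrier of insulin-like growth factors, the highest at -0.06 (adjusted p of 0.693), with 0.35 under TMM. Feedback and stress targets were lower in 11 of 14, beside 63.4% of all genes, with 0 higher, and in 6 of 14 under TMM, beside 28.6%, where 2 were higher, beside 27.3%. DDIT4, an inhibitor of mTORC1 that stress induces, had the lowest log2FC of the whole list at -1.38 ± 0.13 (SE; adjusted p of 1.6e-22), with 23004, 26436 and 21320.2 normalized counts in shControl and 9595, 8691 and 8979.8 in shDYRK1A. KDM3A, a histone demethylase, was the highest at -0.12 (adjusted p of 0.446), with 0.28 under TMM.

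Relatives and receptors of the members were lower in 3 of 5 tested, beside 63.4% of all genes, with 0 higher, and in 2 of 5 under TMM, beside 28.6%. NRP2, a coreceptor for VEGF family ligands, had a log2FC of -1.23 ± 0.15 (SE; adjusted p of 6.92e-14), and NRP1 of -0.72. VEGFB and VEGFC had values of -0.26 and -0.27 and did not pass the adjusted p that VEGFA passed. PGF was under the filter, and KDR, the main signalling receptor for VEGFA, was at 0 counts in all 6 libraries.

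**Figure D4:**
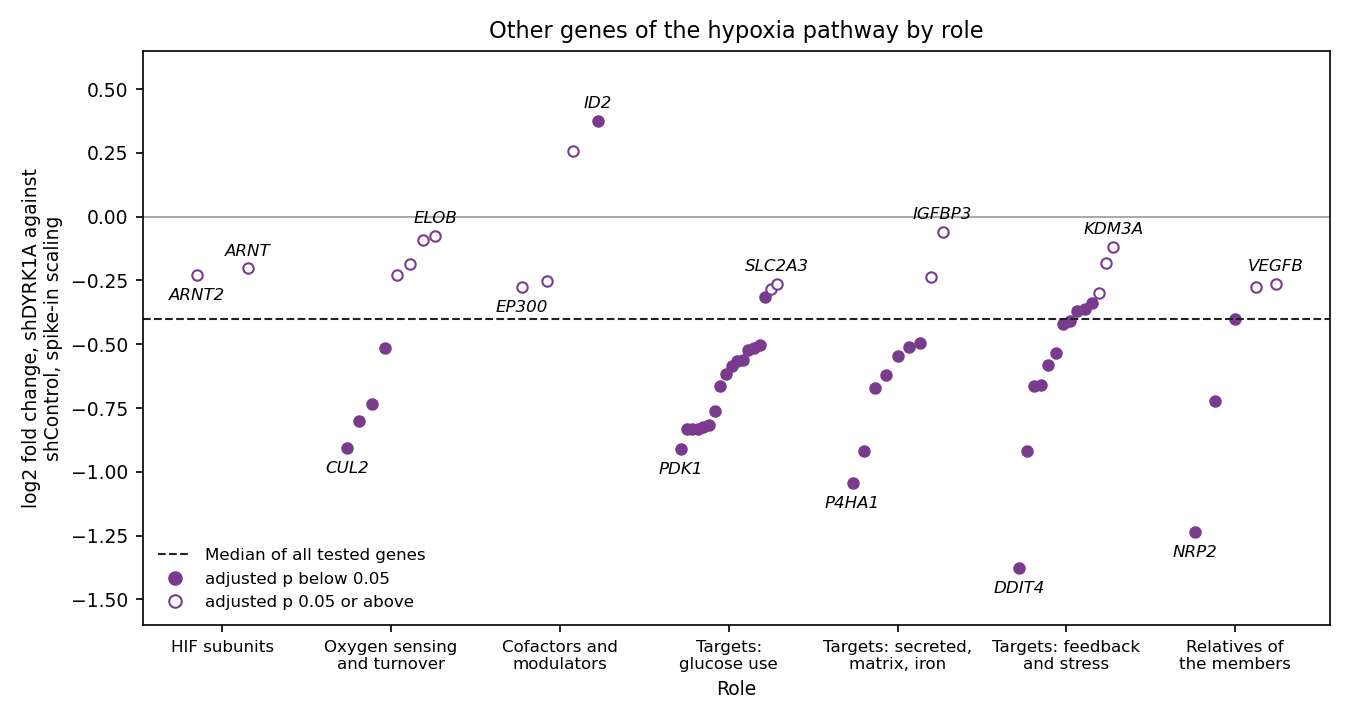
log2 fold change of the 60 tested pathway genes under spike-in scaling, grouped by role, with filled points for an adjusted p below 0.05 and a dashed line at the median of all tested genes (-0.40); the lowest and highest gene of each role are named. ID2 is the single filled point above 0, the glucose targets lie mostly below the line, and the partner subunit genes ARNT and ARNT2 lie above it. The members, HIF1A and EPAS1 among them, are not drawn here.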

How the data were processed

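The authors deposited raw gene counts for each of the 6 libraries (58174 gene identifiers each, from polyadenylated RNA) and a table of normalized signal for 23026 genes. The submitters' notes name STAR, DESeq2, hg38 and dm3, without versions, and the counting strand setting is not given in the sources used here. Each deposited signal column equalled the raw counts divided by 1 constant, which served as the size factor here. That constant comes from the fly reads per the study's methods. A further deposited table holds the authors' own comparison (log2 fold changes, p-values and a test score) and was not used. Reads not assigned to a single gene were left out: unmapped reads were 8.44 to 15.6% of each library, multimapping 2.26 to 2.49%, reads outside features 3.66 to 4.81% and ambiguous 3.42 to 3.59%. The table's 4 rows for such reads were dropped, and 0 sample columns were unmatched.

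Genes with a mean above 10 normalized CPM were tested with edgeR 4.0.16 (quasi-likelihood, R 4.3.3), with Benjamini-Hochberg adjustment over all 9697. The study's limits set the calls: adjusted p under 0.05 together with a log2 fold change beyond 0.7 in either direction. Each standard error was obtained by dividing the log2 fold change by the root of its F value. Likeness used log2 CPM after TMM scaling, with a prior count of 2. Ratios and single CPM values were compared by two-sided exact permutation tests. Coordinates of 95.71% of the 23026 genes in the normalized table, the 10 members included, equalled GENCODE v29 on GRCh38. Scripts were tested on simulated data. Figures were drawn with matplotlib 3.10.9 in Python 3.11.15.

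The members, gene lists and tests were chosen with earlier results of these data known. Genes named are the members, DYRK1A, a fixed set of regulators (HIF3A, ARNT, ARNT2, EGLN2, HIF1AN, VHL, CITED2, ID2 and BNIP3L), the lowest and highest gene of each role, and the 3 genes most like HIF1A and EPAS1. SIAH2, CREBBP, LDHA, HK2, SLC16A3, SLC2A1, NRP1, VEGFC, PGF, KDR, ELOC and CALCRL were named after their values were seen. Results were recomputed with TMM scaling, median-of-ratios scaling, DESeq2 1.42.0, edgeR's filterByExpr, no filter beyond 1 count, a replicate block, other thresholds and leaving out each library. Leave-one-out under TMM was added after seeing the data.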

Additional observations from a re-analysis of the deposited data

How the results depend on the processing

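Under TMM scaling 0 members and under median-of-ratios scaling 0 members met the stricter rule, and 4 members were lower at an adjusted p below 0.05 under either. Under TMM this stood beside 28.6% of all genes, and under median-of-ratios scaling that share was not computed. These scalings gave 28 and 27 lower and 15 and 16 higher pathway genes, and called 187 and 184 of all genes lower and 121 and 125 higher, so that 60.7 and 59.5% of calls were lower, beside 98.1% of the 1386 lower and 27 higher under the spike-in. The direction reversed under TMM (then median-of-ratios) for EPAS1 at 0.036 (0.039), CA12 at 0.060 (0.064), ARNT at 0.19 (0.20), ARNT2 at 0.17 (0.17), HIF1AN at 0.31 (0.31), ELOB at 0.34 (0.34), EP300 at 0.12 (0.12), SLC2A3 at 0.14 (0.14), IGFBP3 at 0.35 (0.35), KDM3A at 0.28 (0.29) and VEGFB at 0.15 (0.15), because the scaling moved the median of all genes by 0.40.

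A threshold of 0.5 called 4 members and one of 1 called 0. How many of all genes met these thresholds was not computed, so these counts have no background to be read against. With filterByExpr 2492 genes were called lower and 229 higher, and with no filter beyond 1 count 2523 and 244, since more genes were tested. filterByExpr gave 2 higher pathway genes, ID2 and CALCRL, and the share of all genes higher at the adjusted p in that fit was not computed. Leaving out each library gave 2 to 4 members called, 6 to 9 members lower at the adjusted p, 34 to 51 lower and 0 to 1 higher pathway genes, 908 (without shDYRK1A 1B) to 2093 (without shControl 1C) genes called lower and 16 to 32 higher. For the adjusted p alone, the share of all genes in these fits was not computed. Their median log2FC over all genes ran from -0.48 (without shControl 1C) to -0.34 (without shDYRK1A 1B). DYRK1A stayed lower in all 6 of these fits (-0.85 to -0.61). The log2FC of IGFBP3 ranged from -0.19 to 0.020, and it was above 0 without shControl 1A and without shDYRK1A 1C. Under TMM, 4 to 5 members were lower in the leave-one-out fits, ADM being the fifth without shDYRK1A 1B. No share of all genes was computed for those fits.

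Same-letter libraries correlated by 0.151, 0.0728 and 0.128 in their deviations from the group means, and every library correlated best with its own letter. The main tests and the permutation tests nevertheless treated the letters as names. An effect shared by libraries of the same letter was therefore modelled only in the replicate block. The replicate block left 2 members called, 9 members lower at the adjusted p, 40 lower pathway genes, and 1394 genes called lower and 28 higher. For the adjusted p alone, the share of all genes in that fit was not computed. DESeq2's Wald test called 2 members and 1386 genes lower.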
